A study of Homo sapiens with 2 samples.

Results

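The long arm of chromosome 20 carries a gene-rich band, 20q11.21, that is gained again and again when human pluripotent stem cells are kept in culture. The expression of 10 of its genes, BCL2L1, ID1, HM13, COX4I2, MAPRE1, POFUT1, KIF3B, ASXL1, PLAGL2 and PDRG1, was compared between a pair of substates of the same human embryonic stem cell line. The genes were taken by name, and their probes were all probes other than array controls whose RefSeq transcript belongs to one of them. They had 17 probes among the 58201 probes of the array. All 10 genes had at least 1 probe well above background on both arrays, and together they form 10 of the 16001 genes that could be measured on both. By the same naming, 31 other genes of the band were listed as neighbours, and 13 of them could be measured on both arrays.

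The cells were H9, an established human embryonic stem cell line, grown in the serum-free medium TeSR-E8. The paper kept H9 on vitronectin and moved cells at passage 35 to Matrigel, an extracellular matrix preparation. The sample labels name no matrix for either array. The study separated substate 1, with strong staining for the keratan sulphate epitope R-10G and little vimentin, from substate 2, with weaker R-10G and more vimentin. Total RNA of substate 1 cells at passage 35 and of substate 2 cells at passage 50 was labelled with the dye Cy3 and put on 1 array each. No gene was altered and no agent was added to either group. H9 is 1 line, so nothing here speaks of other lines. Passage, and any difference in matrix or in time on it, went with substate, and their effects cannot be told apart. With 1 array per substate no test of the difference was possible, and every value below compares these 2 libraries.

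A gain of 20q11.21 arises in culture as an extra copy of a stretch of varying length, and cells that carry it tend to take over. BCL2L1, which encodes the survival protein BCL-XL, is regarded as the main gene behind this advantage because it blocks the mitochondrial route to cell death. The stretch also holds ID1, an inhibitor of differentiation induced by bone morphogenetic proteins, and DNMT3B, the DNA methyltransferase that is abundant in pluripotent cells. Expression arrays do not count gene copies, and a karyotype or copy number of these cells was not given in the sources used here.

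The median difference between the substates was slightly larger for the members than for all genes. Differences are given as log2 of substate 2 minus log2 of substate 1, after the signals of each array were divided by its 75th percentile. The median difference of the 10 genes was 0.31, against 0.08 for all 16001 genes. There were 7 members with a higher and 3 with a lower value in substate 2, close to the 59.8% of all genes that were higher. The same 7 members lay above the median of all genes, as 50% of genes do by definition. ASXL1 was the only member 1.5-fold or more higher, a size that 4.32% of all genes reached. None was 1.5-fold or more lower, against 5.03% of all genes.

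No single member stood out by the size limits used for the whole array. Of the 16 member probes that were well above background, 0 were 2-fold or more higher and 0 were 2-fold or more lower, against 1.55% and 1.67% of the 33166 probes that at least 1 array measured. The study ranked probes by a Z-score, which states how many SDs a probe lies from the mean, both taken over every probe's difference. None of the 17 member probes reached a Z-score of 2, which 3.03% of all 58201 probes did, and none reached -2, which 3.3% of them did. These shares include probes near background, so they are not a like background for the members. The SD was 0.63 over all probes, against 0.38 over the measured genes. With the Z-score taken over probes on both arrays, 0 member probes passed 2 and 0 passed -2. The highest Z-score of a member was 1.08, for ASXL1, and the lowest was -0.90, for a POFUT1 probe.

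**Figure D1:**
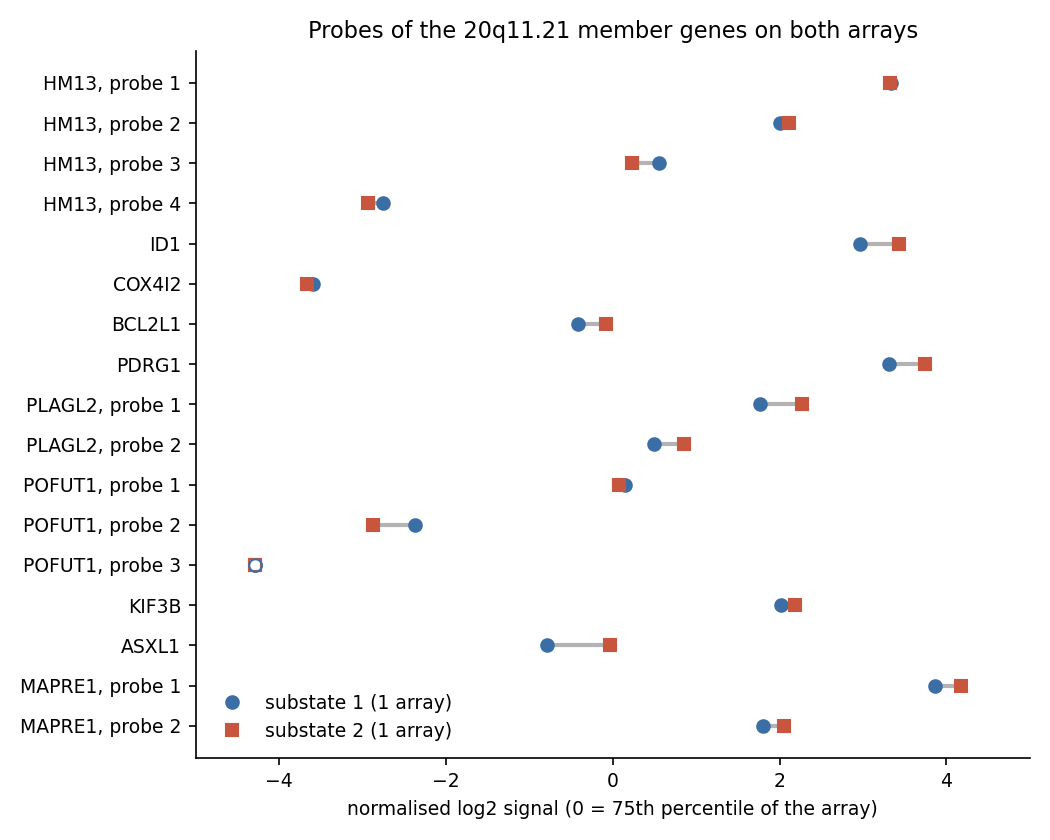
Normalised log2 signal (horizontal axis, 0 is the 75th percentile of each array) of the 17 probes of the 10 genes, listed in the order of the genes along the chromosome. Each probe has 1 value for substate 1 (circle) and 1 for substate 2 (square), and the open symbols mark the POFUT1 probe that neither array placed well above background. The gap was widest for ASXL1, at 0.75, and PLAGL2, MAPRE1, PDRG1, ID1, BCL2L1 and KIF3B also lay to the right in substate 2. COX4I2, the POFUT1 probes well above background and 3 of the 4 HM13 probes lay to the left.

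How far a single difference can be trusted was judged from errors within the arrays. Probes printed several times had a median SD between spots of 0.046 in substate 1 and 0.052 in substate 2 (log2 scale, 291 probes). A difference between single spots therefore had an SD of 0.07 from spot noise. The scanner's own error of each signal was larger, about 0.21 for a typical log2 difference. For bright probes it followed the signal in proportion (in substate 1, 244.4 on 2444 for ID1 and 317.1 on 3171 for an HM13 probe). It was therefore nearly the same for all bright probes and does not rank them by reliability. For a gene it became smaller with the number of probes averaged. Different probes of 1 gene differed by a median of 0.16 (6685 pairs). None of these errors covers the cells, the RNA or the labelling. Of the 10 members, 8 were farther from the median of all genes than their scanner error, and 54.4% of all genes were too. Only ASXL1, PLAGL2 and POFUT1 were farther than 2 scanner errors, 3 of 10 genes, where 22.2% of all genes were. This count depended on probe number. PLAGL2, with 2 probes, was 0.35 from the median with an error of 0.14. ID1, with 1 probe, was farther at 0.39 but had an error of 0.20.

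BCL2L1 had 1 probe, annotated by the transcript NM_138578. Its signal was 234.8 in substate 1 and 260.7 in substate 2, or -0.42 and -0.08 after normalisation. The difference was 0.34 with a scanner error of 0.21 (1.26-fold higher). It was 0.26 above the median of all genes, and 18.7% of genes had a larger difference. BCL2L1 was thus higher in substate 2 by more than its scanner error and by less than 2 such errors. It lay between -1 and 1 on the normalised scale in both substates, near the 75th percentile of each array.

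Other regulators of the same death pathway were read beside it. The fellow guards that, like BCL-XL, hold back cell death had a median of 0.06, with 2 of 4 measured genes higher. MCL1, a short-lived guard, went from 3.41 to 3.70 in normalised log2 signal (0.28 higher), and BCL2, the founding guard, had a difference of 0.12. BCL2L2, also a guard, was lower by a log2 difference of -0.24. BCL2A1 had a bright probe with a difference of 0.00 and another near background on both arrays, so its probes disagree about whether it is expressed. The executioners BAX, BAK1 and BOK, which open the mitochondrial membrane, had differences between 0.04 and 0.14.

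The BH3-only genes encode the sensors that trigger this pathway or bind its guards. Their median was -0.03, with 4 of 8 higher and 4 lower. BAD, which binds BCL-XL and BCL2, was highest at 0.48 (normalised log2 signal 1.70 in substate 1 and 2.18 in substate 2). BMF was lowest at -0.65, from a signal of 864.8 to 483.8, and was the only gene of these lists of guards, executioners and sensors past 1.5-fold. Its other probe could be measured only in substate 1, where it was at least 1.56-fold higher. BBC3, a sensor that p53 induces, was at -0.44, and HRK was at -0.31. BCL2L1 had a larger difference than every measured guard and executioner and than 7 of the 8 sensors. In 1 array per substate this order has no replicate check, and the scanner errors of BCL2L1 and MCL1 overlap.

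RefSeq gives BCL2L1 more than 1 start. The 250 bases before the more distal start (GRCh38.p14, chr20:31723964-31724213, minus strand) are shown because they hold the motif TATAAA, the core of a TATA box, at 2 places, in capitals.
BCL2L1: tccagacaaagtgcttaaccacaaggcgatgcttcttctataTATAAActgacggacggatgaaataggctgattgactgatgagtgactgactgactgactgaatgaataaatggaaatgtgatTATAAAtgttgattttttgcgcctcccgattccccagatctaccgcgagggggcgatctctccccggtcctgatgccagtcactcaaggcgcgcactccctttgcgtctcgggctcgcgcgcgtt
No TATAAA was found before the other listed start. On either strand, TATAAA occurs in 10.7% of the 35116 RefSeq promoters of this length, and it was found in 3 of the 11 entries of the members (ID1, MAPRE1 and 1 of those of BCL2L1). Neither BCL2L1 match lies close to its start. A match of letters is a description and not a known binding site.

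ID1 encodes a helix-loop-helix protein that binds and blocks activators of differentiation. Its probe had a signal of 2444 in substate 1 and 2980 in substate 2, or 2.96 and 3.44 after normalisation. The difference was 0.47 with a scanner error of 0.20 (1.39-fold higher), and 8.32% of genes had a larger one. After ASXL1, it was the largest of the members. ID1 is known to respond directly to bone morphogenetic protein signals, so its relatives and other targets of that signal were listed with it.

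The relatives ID2, ID3 and ID4 lie on other chromosomes and were higher as well. ID3 had normalised log2 signals of 4.01 and 4.34 (difference 0.33), ID4 had -1.28 and -0.95 (0.33), and ID2 had a difference of 0.17. Their median of 0.33 lay above that of all genes, and 0 of 3 reached 1.5-fold. The feedback genes that the same signal induces were divided, with 2 of 4 higher and a median of 0.10. SMAD9 was at 0.38 and SMAD7, an inhibitory SMAD, at 0.29, while SMAD6 was at -0.12 and the decoy receptor BAMBI at -0.09. Of the ID relatives, ID3 and ID4 were above the median of all genes by more than their scanner error and ID2 was not. These counts stand beside 59.8% of all genes that were higher.

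The 110 bases before the ID1 start (GRCh38.p14, chr20:31605179-31605288, plus strand) are shown for a TATAAA close to the start. In capitals are 8 letters, which read as TATAAA on each strand, so that overlapping matches on both strands mark a single place.
ID1: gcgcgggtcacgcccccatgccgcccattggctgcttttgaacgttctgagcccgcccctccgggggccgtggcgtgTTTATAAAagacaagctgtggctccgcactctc

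ASXL1 showed the largest difference of the members. It encodes a chromatin protein that, together with the deubiquitinase BAP1, removes the polycomb mark from histone H2A. Its probe, annotated by the transcript NM_001164603, had a signal of 181.1 in substate 1 and 268.2 in substate 2, or -0.79 and -0.04 after normalisation. The difference was 0.75 with a scanner error of 0.21 (1.69-fold higher), and 2.14% of all genes had a larger one. The value rests on this 1 probe. Under another background correction, described with the processing, it was 0.56.

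The relatives and partners of ASXL1 had a median of 0.20. Of 7 measured genes 6 were higher and 1 was lower, where 59.8% of all genes were higher, and only ASXL3 and BAP1 were above the median of all genes by more than their scanner error. ASXL3, a relative of ASXL1, had a difference of 1.05 from dim signals of 22.3 and 40.4, and ASXL2, the other relative, was at 0.17. The bright ASXL2 probe was at 0.00 and the dim one at 0.35. BAP1 went from 1.87 to 2.28 in normalised log2 signal, a difference of 0.41. OGT, the enzyme that attaches N-acetylglucosamine to proteins and joins the BAP1 complex, was the lower gene at -0.42.

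PLAGL2 and POFUT1 are neighbours that are read in opposite directions from a shared stretch of DNA. PLAGL2 encodes a zinc finger factor and POFUT1 the enzyme that attaches fucose to Notch receptors, a step these receptors need to signal. The 136 bases between their starts (GRCh38.p14, chr20:32207744-32207879, shown on the plus strand, on which POFUT1 is read) are given because both genes share them. Capitals mark GGGCGG on either strand, the core of a GC box.
PLAGL2-POFUT1: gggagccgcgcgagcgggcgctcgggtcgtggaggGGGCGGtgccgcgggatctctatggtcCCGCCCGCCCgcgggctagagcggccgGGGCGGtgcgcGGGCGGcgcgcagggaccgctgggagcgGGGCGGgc
The stretch has 83.8% G and C, 25 CG pairs and 6 matches of the motif, among them a pair that overlaps. Of all RefSeq promoters 42.6% hold this motif, and their median G and C content is 58% with 11 CG pairs in 250 bases.

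The neighbours differed in opposite directions. The brighter PLAGL2 probe read 1070 in substate 1 against 1330 in substate 2, which is a difference of 0.50. Its other probe had 441.9 and 497.8, a difference of 0.36. Both PLAGL2 probes were higher in substate 2, and the gene value was 0.43 with a scanner error of 0.14 (1.35-fold higher).

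POFUT1 was lower, but its probes differed in how much. The brightest, annotated by NM_015352, had signals of 348 and 290.8 and a difference of -0.07, within its scanner error of 0.21. A dimmer probe, annotated by NM_172236, had 60.4 and 37.5 and a difference of -0.50. The remaining probe had signals of 16.0 and 14.0, near background on both arrays, and entered no gene value. The POFUT1 value of -0.29 (scanner error 0.16) thus came mainly from the dim NM_172236 probe.

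The gap between the neighbours was 0.72 in log2 difference. It was chosen for description after its values were seen. Among 1022 gene pairs on opposite strands with starts within 1000 bases of each other, the median gap was 0.22, and 6.26% of pairs had one at least this large. With the brightest probe of each gene it was 0.57, and under the alternatives of the processing it ran from 0.44 to 0.72. Opposite sides of the all-gene median are common among such pairs, at 43.8%.

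Relatives of these genes gave further values. PLAG1, the founding member of the PLAGL2 family, went from a signal of 3267 to 2123, a difference of -0.43 and opposite to PLAGL2. PLAGL1 was measured in substate 1 only, where it was at least 1.17-fold higher. The enzymes that add sugars to Notch receptors had a median of 0.01, with 4 of 6 higher. POFUT2, the relative of POFUT1, was at 0.03, MFNG, a fringe enzyme, was highest at 0.32, and EOGT was lowest at -0.38.

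PDRG1 encodes a small subunit of the prefoldin-like complex that helps to assemble RNA polymerases. Its signals were 3116 and 3697, or 3.31 and 3.75 after normalisation. The difference was 0.43 with a scanner error of 0.20 (1.35-fold higher), and 10.4% of genes had a larger one. The other genes of the complex had a median of 0.24, with 9 of 10 higher and 8 above the median of all genes. Of all genes, 59.8% were higher and 50% lay above that median. POLR2E, a subunit shared by the RNA polymerases, was highest at 0.39, and URI1, another prefoldin-like subunit, was lowest at -0.08. PDRG1 had a larger difference than all 10 of them, none of which reached 1.5-fold.

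MAPRE1 and KIF3B belong to the microtubule system. MAPRE1 encodes EB1, which rides on growing microtubule ends. Its brighter probe had signals of 4585 and 4981 (difference 0.31), and the other had 1090 and 1142 (0.25). The probes were close to each other, and the gene value was 0.28 with a scanner error of 0.14 (1.22-fold higher). Relative to all genes it was 0.20 higher, and 25.5% of genes had a larger difference.

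Among the partners of MAPRE1 at microtubule ends the median was 0.04, with 2 of 4 higher. Its relative MAPRE2 was at 0.31, from 1547 to 1685 in signal, close to MAPRE1. MAPRE3 was near background on both arrays. CLASP2, which stabilises microtubules, was lowest at -0.21.

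KIF3B encodes a motor subunit of kinesin-2, which carries cargo in cilia. Its signals of 1268 and 1250 were almost equal, and after the array scaling they gave 2.01 and 2.18. The difference of 0.17 lay within its scanner error of 0.20, and 39.5% of genes had a larger one. Its partner in the motor, KIF3A, was at -0.14, the related subunit KIF3C at 0.28, and the cargo adaptor KIFAP3 at 0.26. The median of the 4 measured relatives and partners was 0.18, with 3 higher.

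HM13 and COX4I2 were the remaining members. HM13 encodes signal peptide peptidase, a membrane protease of the endoplasmic reticulum that clears cut signal peptides. Its brightest probe, annotated by NM_178580, had signals of 3171 and 2758 and a difference of -0.01. A probe annotated by NM_030789 had 1259 and 1195, a difference of 0.11. Both probes annotated by NM_178582 were lower, at -0.33 (460.1 and 322.2) and -0.19 (46.5 and 35.9). The 4 probes therefore spanned 0.44, and their mean was -0.10 with a scanner error of 0.12. Relative to the median of all genes HM13 was at -0.19, farther than that error.

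The related proteases that cut within membranes were all slightly lower, each by less than its scanner error when read against 0. Against the median of all genes, PSEN2 (-0.25, scanner error 0.20) and SPPL2B (-0.24, 0.21) were below by more than their error. SPPL2A (-0.19, 0.20) and SPPL3 (-0.11, 0.12) were not. Of 4 measured genes 0 were higher and 4 were lower, with a median of -0.14, where 6438 of all 16001 genes were lower. SPPL3, a relative of HM13, was nearest to 0 at -0.03, and PSEN2 was farthest at -0.17. None reached 1.5-fold.

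COX4I2 encodes the lung form of subunit 4 of cytochrome c oxidase. Its only probe was dim, with signals of 25.9 and 21.7, and the difference of -0.07 was small beside its scanner error of 0.38. COX4I1, the form found in most tissues, had signals of 18830 and 19056 and a difference of 0.21. COX4I2 was the member whose direction was least settled. After 1 of 8 alternatives of the processing its difference was 0.0006, on the other side of 0.

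An extra copy of a gene in a cell with a pair of them gives 3 copies in place of 2, a ratio of 1.5 or 0.585 on the log2 scale. The members were set beside this size after the median of all genes was subtracted. ASXL1, at 0.67, was the only one above it. ID1 (0.39), PDRG1 (0.35), PLAGL2 (0.35), BCL2L1 (0.26) and COX4I2 (-0.15) were below it by less than 2 scanner errors. MAPRE1 (0.20), KIF3B (0.08), HM13 (-0.19) and POFUT1 (-0.37) were below it by more than 2. Within 2 scanner errors of that ratio were thus 6 of 10 members, against 26.2% of all 16001 genes, and the wide error of COX4I2 alone placed it among the 6. Of these, ID1, PDRG1, BCL2L1 and COX4I2 lay within 2 scanner errors of the median of all genes as well. For them the count does not separate the ratio from no change, and copy number was not tested. The RNA was extracted from many cells at once, so a small change in all cells and a larger change in some cells could not be told apart.

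**Figure D2:**
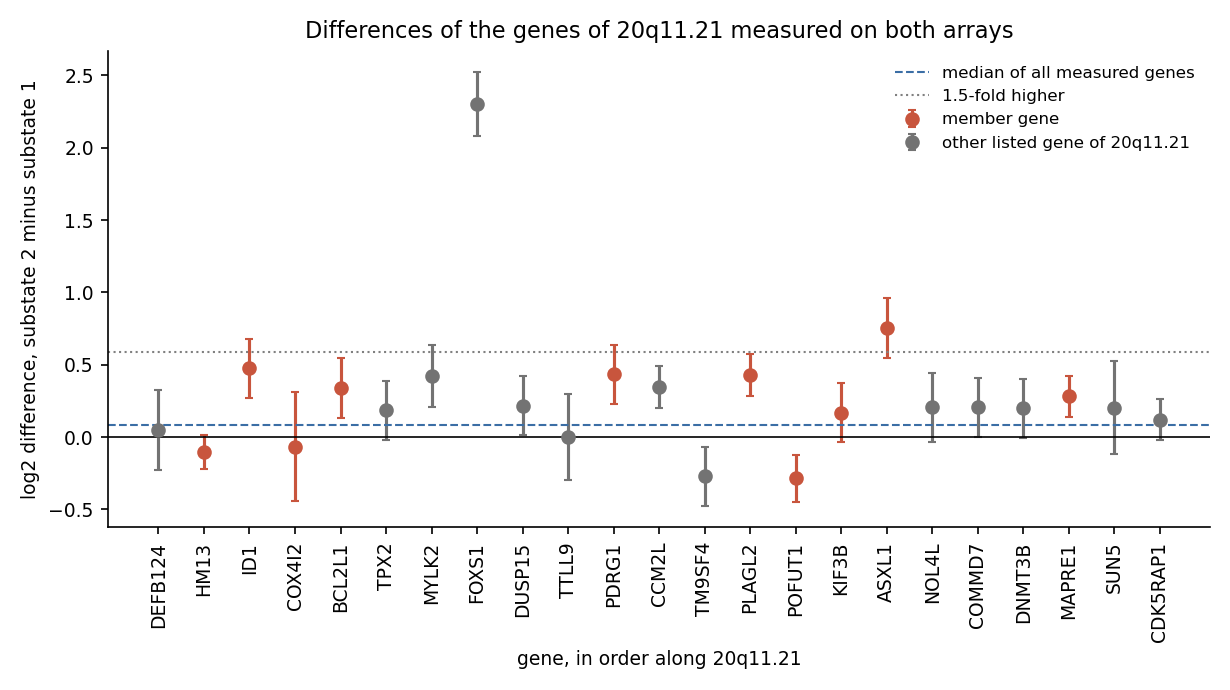
Log2 difference (vertical axis, substate 2 minus substate 1) of the 10 member genes and of 13 other listed genes of 20q11.21 measured on both arrays, in their order along the chromosome. Points are gene values, bars are plus and minus 1 scanner error, which does not include the spread between cultures, and the dashed and dotted lines mark the median of all genes (0.08) and 1.5-fold. Apart from FOXS1 at 2.30 and ASXL1 at 0.75 all points lie below the 1.5-fold line, and the lower members HM13, COX4I2 and POFUT1 stand among higher neighbours.

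The rest of the band was read in the same way. Of the 31 other genes 29 had a probe and 38 probes were present in all. There were 16 probes well above background on both arrays, 3 on 1 array and 19 on neither, most of the last belonging to the defensin and BPI fold families. The 13 measured genes had a median difference of 0.20, with 12 higher and 1 lower, and 10 were above the median of all genes. Of all genes, 59.8% were higher and 50% lay above that median. Higher is meant after the array scaling, by which TTLL9, with raw signals of 31.7 and 27.9, counted as higher. FOXS1 was the only one 1.5-fold or more higher, a size that 4.32% of all genes reached.

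FOXS1, a forkhead factor, had the largest difference of the band. Its signal was 59.8 against 258.5 in substate 2, which is a difference of 2.30 with a scanner error of 0.22 (4.93-fold higher). Its Z-score of 3.52 was past the limit. FOXS1 lies between MYLK2 and DUSP15, whose differences were 0.42 and 0.22, so the nearest genes did not share its size.

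The other higher genes had modest differences. CCM2L was at 0.34, with both of its probes higher (0.27 and 0.42). NOL4L, COMMD7, SUN5, DNMT3B and the spindle protein TPX2 lay between 0.19 and 0.21. DNMT3B was very bright, with 35990 and 36267, and its difference of 0.20 was within its scanner error. CDK5RAP1 was at 0.12, DEFB124 at 0.05 and TTLL9 at 0.00. TM9SF4, which lies between CCM2L and PLAGL2, was the lower gene, with signals of 3621 and 2637 and a difference of -0.27.

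A few genes of the band were seen on 1 array only. BPIFB2 was well above background in substate 2 alone, where it was at least 2.21-fold higher, and BPIFA1 likewise at least 1.27-fold higher. DEFB121 was well above background in substate 1 alone, where 1 of its probes was at least 1.54-fold higher. None of these signals exceeded 28.1.

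Position along the chromosome was described for 458 genes of chromosome 20 measured on both arrays. From DEFB115 to CDK5RAP1 there were 25 such genes, the members among them, and 2 noncoding genes that were not listed, HM13-AS1 (0.15) and NOL4L-DT (0.14). The 25 genes had a median difference of 0.20, and 21 (84%) were higher. The 151 genes before this stretch had a median of 0.12 with 63.6% higher, and the 282 genes after it had 0.13 with 63.8% higher. Without the members, the stretch had 15 genes with a median of 0.20, of which 14 (93.3%) were higher. Higher is meant after the array scaling, by which near-equal raw signals, such as 5493 and 5486 for TPX2, counted as higher. Of the 13 listed genes among the 15, 10 were above the median of all genes. The middle 50% of the 25 differences ran from 0.12 to 0.34, and over all genes from -0.16 to 0.28.

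Running medians placed the stretch among others of the chromosome. Over 11 neighbouring genes the highest value within it was 0.34, centred at CCM2L, and 1 of 448 windows of the chromosome was above that, centred at GDAP1L1 (0.37). Over 21 genes the highest value within it was 0.21, and 69 of 438 windows were above that, up to 0.30 at SAMHD1. With the wider window the stretch was therefore not among the highest of the chromosome. Chromosome 20 as a whole had a median of 0.14, the highest of 23 chromosomes, followed closely by chromosome 22 (0.14) and chromosome 17 (0.13), and chromosome 13 was lowest (0.03).

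**Figure D3:**
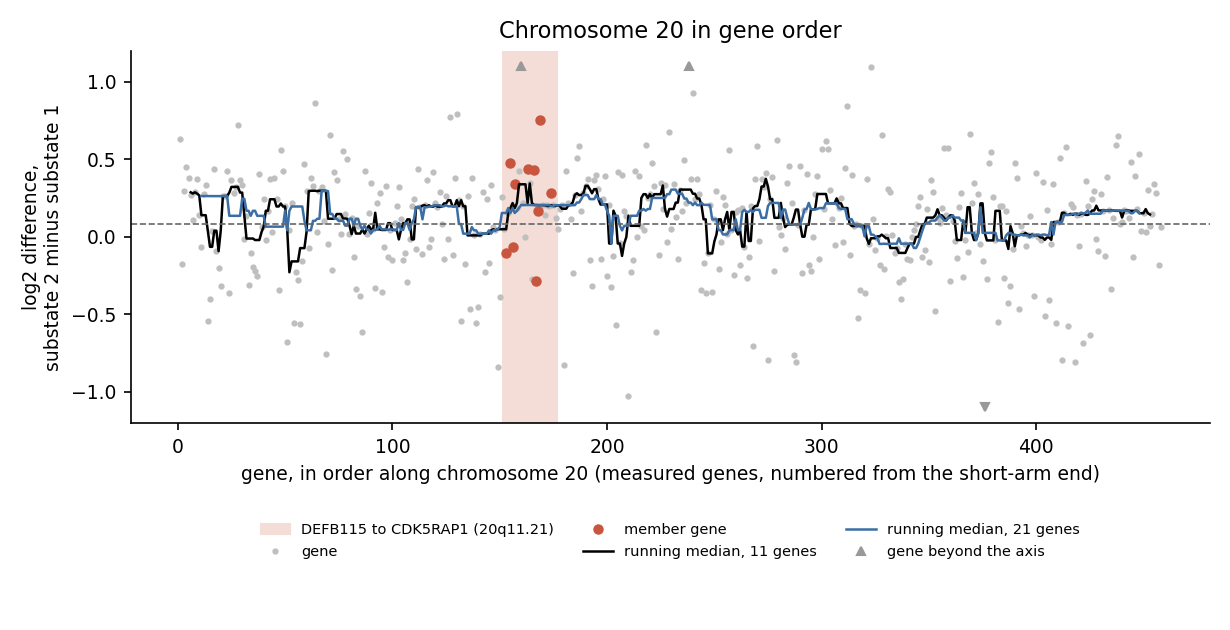
Log2 difference (vertical axis, substate 2 minus substate 1) of the measured genes of chromosome 20 in their order from the short-arm end (horizontal axis, gene number). Points are genes, larger points are the members, lines are running medians over 11 and 21 genes, the dashed line is the median of all genes of the array, the shaded part runs from DEFB115 to CDK5RAP1, and triangles mark 2 genes above and 1 below the axis. The shaded part holds one of the higher stretches over 11 genes (0.34) and not over 21 genes (0.21).

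**Figure D4:**
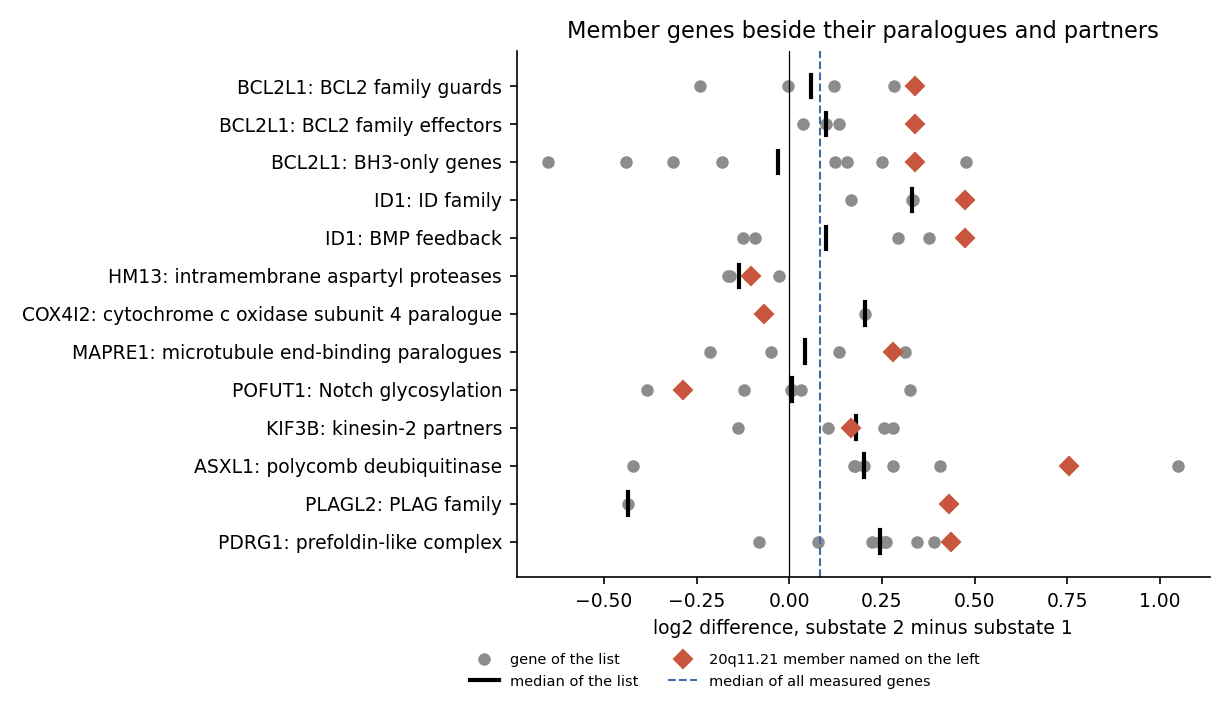
Log2 difference (horizontal axis, substate 2 minus substate 1) of each member (diamond) beside the measured genes of its list of relatives and partners (circles), with the median of each list as a short bar and the median of all genes (0.08) as a dashed line. Each circle is 1 gene measured on both arrays, with 1 array per substate. ID1, PDRG1 and BCL2L1 lie above the medians of their lists, HM13 lies among lower relatives, and PLAGL2 and PLAG1 lie on opposite sides.

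The state of the cells moved along with substate, and its markers are given because their part in the results for 20q11.21 was not tested. All sums given here are of raw signals, before the array scaling. The pluripotency markers were present on both arrays with a summed signal of 289520 in substate 1 and 296316 in substate 2. Most of it came from 1 POU5F1 probe (168160 and 181073). Of these markers 6 of 7 were higher, with a median of 0.18, where 59.8% of all genes were higher. CRIPTO was the lower one at -0.46. The mesenchymal markers summed to 7245 and 21731, with VIM at 2.53, ZEB1 at 2.54 and CDH2 at 0.82, and ZEB2 was measured in substate 2 only. The epithelial markers CDH1, EPCAM and ESRP1 summed to 35993 and 16458 and were lower, 3 of 3. Of the 6 neural markers NES, DCX and TUBB3 were measured on both arrays and were higher (median 0.40), SOX1 and POU3F2 were measured in substate 2 only, and PAX6 was near background on both, with summed signals of 12678 and 14798. The mesoderm and endoderm markers TBXT, MIXL1, SOX17 and GATA6 were near background on both arrays, with summed signals of 37.0 and 30.0. Fibroblast markers summed to 53052 and 42526, mostly from THY1, with 1 of 4 measured genes higher and LUM and DCN near background.

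Both arrays were of similar quality. Well above background were 57.4% of the 60901 spots other than controls for substate 1 and 54.7% for substate 2, and 0 spots were saturated. The 75th percentile used for scaling was 313.7 and 275.4, so an equal raw signal on both arrays appears as a higher normalised value in substate 2.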

How the data were processed

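What the authors deposited for each array is the scanner's table, which gives an intensity per spot. Per the file headers, Agilent Feature Extraction 11.5.1.1 (protocol GE1_1105_Oct12, design annotated on hg19) had subtracted background. The deposited series matrix holds log2 values that differed from those computed here by 1 constant per array (within 0.01, 100% of probes), and its medians were -3.57 and -3.62. From the processed intensities (floor of 1) without outlier spots, log2 values were averaged per probe, and each array's 75th percentile was subtracted. A gene value was the mean over its probes well above background on both arrays. A probe measured on 1 array only was given a bound against the dim array's lowest signal well above background or its own value, whichever was higher. The scanner error is the files' signal error, carried into the log2 difference and, for a gene, into the mean over its probes.

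Probes were named through RefSeq accessions in a GRCh38.p14 table (31104 of 58201 matched, 53.4%). Probes annotated otherwise were not used here. The table gave gene order only. Some genes are not reported here and were left out of the lists and of the gene order. Promoters came from RefSeq: 8 of the 10 genes matched, with 11 entries, and HM13 and COX4I2 had none. Motifs were sought on both strands in the 250 bases before each start. TDGF1 was read under its current name CRIPTO.

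The members and lists were chosen with earlier results of these data known, and lists are described by counts and medians. Named were all members with every probe, neighbours seen on at least 1 array, and of each list the closest relatives and the extremes. Alternatives were median centring, quantile normalisation, loess centring (span 0.3), normexp (offset 50, on the median spot and background signals), the series matrix, outliers kept, the brightest or all probes of a gene, other Z-scores and wider windows. Tools were Python 3.11.15, pandas 2.3.3, statsmodels 0.14.6, R 4.3.3 and limma 3.58.1. The steps were tested on simulated data.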

Additional observations from a re-analysis of the deposited data

How the results depend on the processing

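The direction of 9 of the 10 members was kept under all 8 alternatives run for each gene. COX4I2 crossed 0 after normexp background correction (0.0006). Relative to the median of all genes none of the 10 changed sign. The median difference of the members ran from 0.25 after loess centring to 0.35 after centring on the median, beside 0.03 and 0.13 for all genes. Under normexp 1 member probe, that of ASXL1, passed a Z-score of 2 (2.03) while its difference was 0.56, so 0 members were then 1.5-fold higher. The highest running median of the 20q11.21 stretch was 0.21 over 21 genes in place of 0.34 over 11, and over 11 genes it was 0.27 after quantile normalisation and 0.24 after loess centring. Of the remaining values, which include the median of all genes, 17 moved by more than the SD between spots (or, for counts, by over 1.5 times) and 99 did not. Loess centring moved ID1 to 0.37, PDRG1 to 0.32, MAPRE1 to 0.18 and KIF3B to 0.09, all smaller than before. BCL2L1 (0.33) and ASXL1 (0.75) hardly changed by it. POFUT1 was at -0.07 with its brightest probe and at -0.10 under normexp, and HM13 at -0.01 and -0.03, so both are small by these settings. The causes were not tested. No paired analysis was possible because there was 1 array for each substate. The number of arrays limits all values.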
